A study of Homo sapiens with 3 samples.

Results

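CaSki cells that carried a NANOG transgene and were transfected with an siRNA to HDAC1 were compared with CaSki cells that carried the empty vector and were transfected with an siRNA to GFP. CaSki is an established line from a human epidermoid carcinoma of the cervix and carries integrated papillomavirus. The transgene was FLAG-tagged NANOG in the retroviral vector pMSCV, and the control cells carried pMSCV with no insert. Total RNA was extracted with Trizol, and strand-specific libraries were made from 2 ug of it. The study's question, by its title, was which genes respond to NANOG together with HDAC1. The genes compared were those with a mean of at least 1 FPKM (fragments per kilobase of transcript, scaled to the mapped fragments of the library) over these 2 libraries, which held for 11372 of 23277 genes. The other library of the series, from NANOG cells with GFP siRNA, took no part in choosing genes or in the differences, and its values are given beside the others only as a description. The labels do not say whether the transduced cells were pools or single clones.

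With 1 library in each group, the differences carry no replicate check, no standard error and no p-value. The comparison changed both the transgene and the siRNA, so what belongs to NANOG and what to HDAC1 siRNA cannot be told apart in it. Differences are log2(FPKM + 1) of the NANOG/siHDAC1 library minus the control library, which understates the difference of low genes, and "2-fold" means a difference of 1 or more on that scale. Because these are bulk RNA samples, fewer cells with a transcript and less of it per cell cannot be told apart.

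NANOG is a homeodomain transcription factor that holds embryonic stem cells in the pluripotent state, and it is found in many carcinomas. HDAC1 removes acetyl groups from histones and acts within the Sin3, NuRD and CoREST corepressor complexes, alongside its close relative HDAC2. Transcription programmes that recur below are the hypoxia response driven by HIF, lipid synthesis driven by the SREBP factors, the oxidative stress response driven by NRF2, and cytokine expression driven by NF-kB.

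NANOG stood at 0.0357 FPKM in the control library, 325 FPKM in the NANOG/siHDAC1 library and 298 FPKM in the NANOG/siGFP library. HDAC1 stood at 19.0 FPKM in the control, 12.8 FPKM with HDAC1 siRNA and 108 FPKM in the NANOG/siGFP library. HDAC1 was thus lowest in the library labelled with its siRNA, by -0.54 against the control, and the 2 NANOG libraries were far apart in it. HDAC2, the deacetylase most like HDAC1, was at 17.7 and 17.8 FPKM in the control and the NANOG/siHDAC1 library, a difference of 0.01. Among the 17 deacetylases and sirtuins compared, HDAC1 had the lowest difference, followed by HDAC6 and HDAC5 (both -0.42) and HDAC3 (-0.29, 48.3 against 39.2 FPKM). Subunits of the corepressor and Polycomb complexes were spread around 0, with 16 of 35 higher, 19 lower and a median of -0.01, which scaling both libraries to the same sum (TPM) turned to 0.13. The corepressor subunits TBL1X (-0.58) and SAP30 (-0.49) were toward its low end, and EZH2, the Polycomb methyltransferase, at its high end (0.36).

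Most genes were close between the 2 libraries: the difference had a median of -0.00 and an SD over genes of 0.31, and 92.3% of genes lay within 0.5. The 2-fold line was passed upward by 38 genes (0.334%) and downward by 95 (0.835%). In either direction by any amount, 49.6% were higher and 50.4% lower. TPM scaling put the all-gene median at 0.12 and the split of 2-fold genes to 55 higher and 73 lower, so the excess of lower genes depends on the scaling in size. The TPM sums include small RNA symbols, and equal sums without them gave 44 higher and 86 lower. Small list medians given below are to be read against that shift. The spread was similar at low and high levels: 95% of genes at 5 to 20 FPKM lay between -0.66 and 0.48, and 95% of those at 100 FPKM or more between -0.72 and 0.46. Small RNA symbols, left out of the comparison, made up 21.2% of the control sum and 15.99% of the NANOG/siHDAC1 sum. The epithelial label was checked with other cell types' markers: 14 markers of immune, endothelial, stromal, muscle and glial cells summed to 0.383 FPKM in the control and 0.618 FPKM in the NANOG/siHDAC1 library, and the macrophage marker CD68, also a lysosomal protein, was at 50.7 and 53.5 FPKM.

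**Figure D1:**
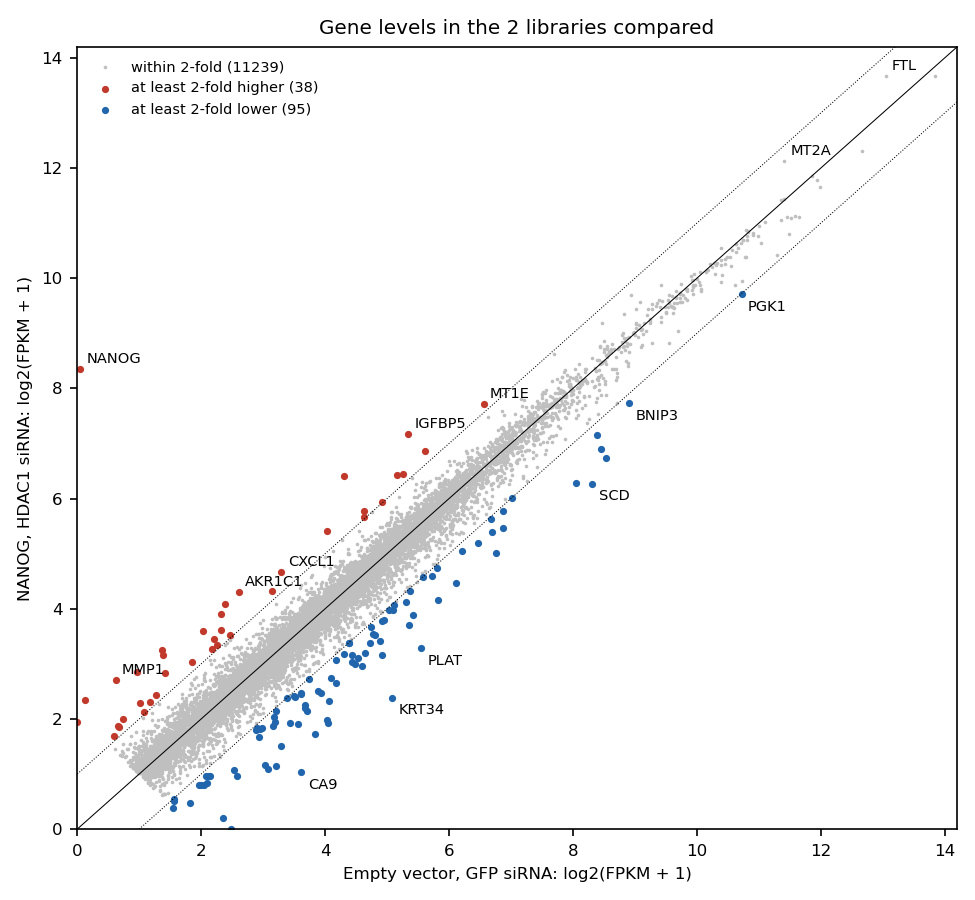
Level of each of the 11372 genes in the control library (x axis) and the NANOG/siHDAC1 library (y axis), both as log2(FPKM + 1); the solid line marks equal levels and dotted lines a 2-fold difference. Red points are the 38 genes at least 2-fold higher and blue points the 95 at least 2-fold lower; NANOG lies alone at the upper left.

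Genes of the hypoxia response, which HIF activates when oxygen is scarce, were lower throughout: all 31 compared were lower in the NANOG/siHDAC1 library and 12 were at least 2-fold lower, with a median of -0.86. Across all genes, 50.4% were lower and 0.835% were 2-fold lower, and the median was -0.00. CA9, a cell-surface carbonic anhydrase that exports acid, stood at 11.3 FPKM in the control, 1.05 FPKM with NANOG and HDAC1 siRNA, and 0.389 FPKM in the NANOG/siGFP library, a difference of -2.58. ANKRD37 and BNIP3 were lower as well, and their promoters are shown with that of CA9 because all hold the HIF core motif. The promoters, from RefSeq on GRCh38.p14, run from 250 bases before to 50 after the gene start. They are chr9:35673678-35673977, plus strand for CA9, chr4:185396591-185396890, plus strand for ANKRD37 and chr10:131981874-131982173, minus strand for BNIP3. Capitals mark ACGTG on either strand; where both strands match in CACGTG, the matches overlap.
CA9: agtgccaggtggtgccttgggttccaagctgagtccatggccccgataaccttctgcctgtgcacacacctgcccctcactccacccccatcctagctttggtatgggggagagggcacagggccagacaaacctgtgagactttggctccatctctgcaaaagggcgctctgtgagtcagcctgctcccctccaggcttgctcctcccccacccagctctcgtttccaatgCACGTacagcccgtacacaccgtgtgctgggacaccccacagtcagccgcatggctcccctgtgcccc
ANKRD37: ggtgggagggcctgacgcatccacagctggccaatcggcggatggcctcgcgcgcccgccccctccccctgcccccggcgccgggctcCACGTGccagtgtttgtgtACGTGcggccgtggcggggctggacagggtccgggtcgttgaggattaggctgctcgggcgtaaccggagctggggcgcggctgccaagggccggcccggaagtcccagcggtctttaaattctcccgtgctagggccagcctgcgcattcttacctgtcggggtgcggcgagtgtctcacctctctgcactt
BNIP3: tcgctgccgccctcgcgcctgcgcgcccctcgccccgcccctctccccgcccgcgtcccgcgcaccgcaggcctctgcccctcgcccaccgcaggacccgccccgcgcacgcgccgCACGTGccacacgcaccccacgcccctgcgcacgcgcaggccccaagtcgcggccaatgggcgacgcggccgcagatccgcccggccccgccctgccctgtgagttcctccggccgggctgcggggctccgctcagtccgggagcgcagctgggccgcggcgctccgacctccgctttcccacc
The CA9 match begins 18 bases before the gene start. Those of ANKRD37 begin 162, 161 and 143 bases before it, and those of BNIP3 134 and 133. ACGTG occurred on either strand in 16 of the 27 hypoxia genes' promoters found in the RefSeq table (59.3%), against 21.6% of all 27305 promoters. A match is a description of the sequence and not evidence of binding.

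The hypoxia genes differed in role but not in direction. BNIP3 and BNIP3L, which mark mitochondria for removal, stood at 480 and 87.8 FPKM in the control and at 212 and 35.7 FPKM in the NANOG/siHDAC1 library. NDRG1, a stress-responsive cytoplasmic protein, was at 351 FPKM in the control and 118 FPKM in the NANOG/siHDAC1 library, with 107 FPKM in the NANOG/siGFP library. These abundant genes differed by -1.17 (BNIP3), -1.28 (BNIP3L) and -1.57 (NDRG1). LOX, which crosslinks collagen, differed by -1.78 (8.81 to 1.86 FPKM), and PFKFB4, which makes an activator of glycolysis, by -1.28 (27.0 to 10.5 FPKM). VEGFA, the angiogenic growth factor, was at the mild end, with 50.9 FPKM in the control, 32.7 FPKM in the NANOG/siHDAC1 library and a difference of -0.62. KDM3A, a histone demethylase, had the smallest difference of the 31, at -0.45.

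HIF itself and its regulators were less uniform, with 2 of 9 higher, 7 lower and a median of -0.23. HIF1A, the main oxygen-regulated subunit, was at 81.4 and 76.8 FPKM (-0.08), and VHL, which directs it to degradation, at 10.8 and 10.9 FPKM (0.01). EPAS1, the HIF2 subunit, was lower at 42.8 and 25.04 FPKM (-0.75). EGLN1 and EGLN3, oxygen-sensing hydroxylases that HIF also induces, differed by -0.84 and -0.67. ARNT2, a partner subunit of HIF, had one of the most negative differences of all genes, -2.12, with 15.6 FPKM in the control and 2.80 FPKM in the NANOG/siHDAC1 library. HIF activity is set mostly at the protein level, which was not measured here.

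Glycolytic enzymes and lactate carriers were lower in 16 of 19 cases, 3 of them 2-fold, against 50.4% and 0.835% of all genes. Their median was -0.55. The brain-type isozymes ALDOC (68.5 to 21.1 FPKM, -1.65) and ENO2 (41.7 to 13.7 FPKM, -1.54) differed most. Among the abundant enzymes, PGK1 was at 1695 FPKM in the control, 837 FPKM with NANOG and HDAC1 siRNA and 802 FPKM in the NANOG/siGFP library. Its difference of -1.02 sat at the 2-fold line, and TPM scaling gave -0.88. LDHA, which turns pyruvate into lactate, differed by -0.87, and TPI1 by -0.77. GAPDH, often used as a reference gene, was at 6509 and 5102 FPKM, a difference of -0.35. The 3 higher genes were LDHB (0.39), the lactate dehydrogenase subunit that favours the reverse reaction, PFKM (0.14) and SLC16A1 (0.07).

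Lipid synthesis genes were lower too. Of 26 genes of cholesterol synthesis and uptake, 24 were lower with a median of -0.38, and of 13 fatty acid genes 12 were lower with a median of -0.47. SCD, the desaturase that makes oleate, stood at 318 FPKM in the control, 126 FPKM in the NANOG/siGFP library and 76.4 FPKM in the NANOG/siHDAC1 library, a difference of -2.04. FDPS, which makes farnesyl diphosphate, was at 170 and 93.8 FPKM (-0.85), and DHCR7, a late enzyme of cholesterol synthesis, at 145 and 82.3 FPKM (-0.81). Both SREBP genes were lower, SREBF1 by -0.995 and SREBF2 by -0.77. INSIG1, which retains SREBP in the endoplasmic reticulum and is itself an SREBP target, was at 116 and 53.8 FPKM (-1.09, or -0.96 under TPM scaling). FDFT1, squalene synthase, was milder at 142 and 115 FPKM, a difference of -0.30. The genes above 0 were PMVK (0.09), SCAP (0.04) and ELOVL6 (0.22).

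**Figure D2:**
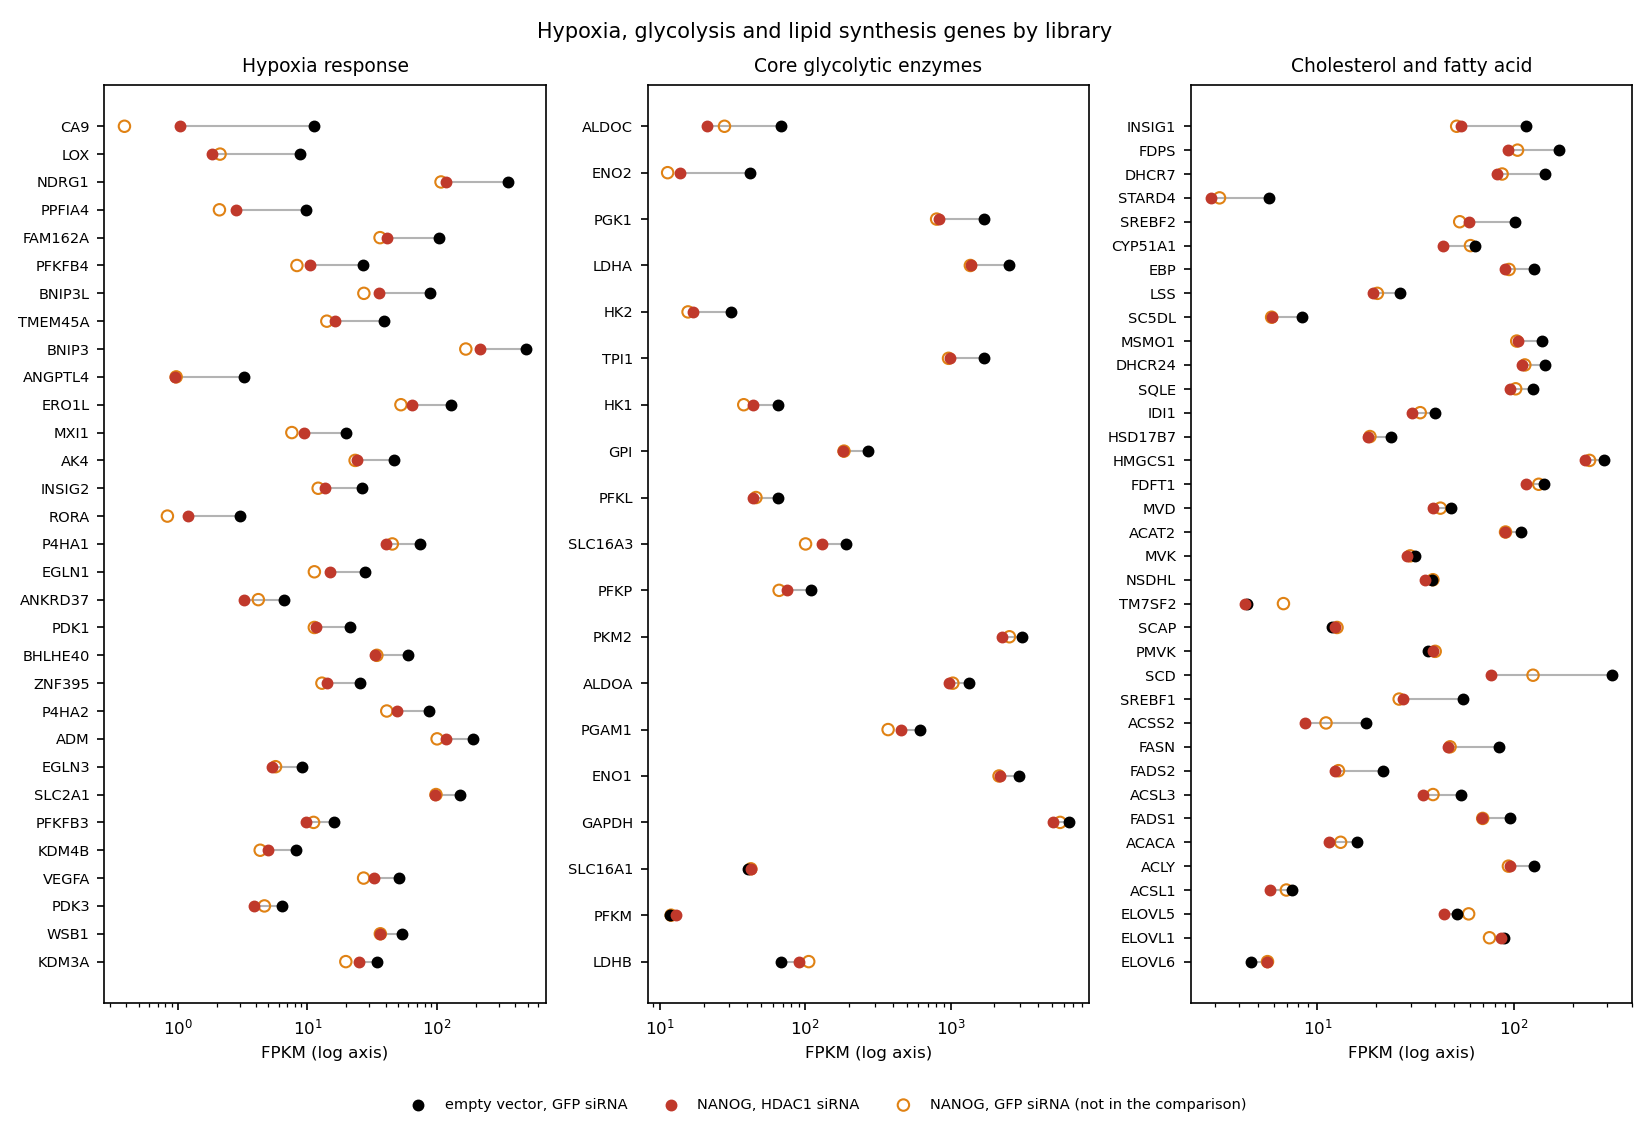
FPKM (log axis) of hypoxia response genes, glycolytic enzymes and lipid synthesis genes, 1 gene a row: black, control; red, NANOG with HDAC1 siRNA; open orange, NANOG with GFP siRNA. The red point lies left of the black one for all 31 hypoxia genes, 16 of 19 glycolytic genes, all but 2 of the cholesterol genes drawn and 12 of 13 fatty acid genes; some cholesterol genes are not drawn.

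Targets of ATF4, the factor induced by amino acid shortage, were lower in 20 of 28 cases (median -0.22). DDIT4, an inhibitor of mTORC1 that hypoxia also induces, was the lowest at 333 and 141 FPKM, a difference of -1.23. Next were VLDLR (-0.82), SLC7A5 and PCK2 (both -0.72). What lies behind these differences was not tested. The serine synthesis enzymes PSAT1 and PHGDH differed by -0.51 and -0.50, while DDIT3 (0.18), ATF3 (0.38) and ATF5 (0.64), stress-induced transcription factors, were higher. The amino acid response element TGATGNAA was found in 5 of 25 promoters of the ATF4 list (20%), against 3.67% of all promoters. Cytosolic tRNA synthetases were lower in 14 of 19 cases (median -0.16). Chaperones of the endoplasmic reticulum were lower in 14 of 20 (median -0.17), with the master chaperone HSPA5 at -0.10. Heat shock proteins of the cytosol and mitochondria were the other way, with 14 of 15 higher and a median of 0.33. HSPA8, the constitutive HSP70, was at 541 FPKM in the control, 754 FPKM with NANOG and HDAC1 siRNA and 786 FPKM in the NANOG/siGFP library (0.48).

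Epithelial genes had their own set of large negative differences. Of 17 keratins, 13 were lower, 3 of them 2-fold, with a median of -0.43, against 50.4% and 0.835% of all genes. KRT34, a hair-type keratin, had the most negative difference of all genes compared, -2.70, with 33.0 FPKM in the control, 4.22 FPKM in the NANOG/siHDAC1 library and 1.95 FPKM in the NANOG/siGFP library. KRT15, the next compared gene on chromosome 17 and a basal-cell keratin, differed by -1.45. Simple-epithelial keratins went both ways, with KRT18 (0.46) and KRT8 (0.13) higher and KRT19 (-0.72) and KRT7 (-0.23) lower. Of the main basal pair, KRT5 was at 555 and 540 FPKM (-0.04), and KRT14 was lower (-0.51). Hair-type keratins KRT81, KRT83 and KRT86 are near copies of each other, so reads could be split between them.

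The list of cornified envelope genes, kallikreins and squamous antiproteases split: 6 of 16 were at least 2-fold lower, against 0.835% of all genes. Yet the median was only -0.12, and TPM scaling turned it to 0.01. SLPI, a secreted leukocyte protease inhibitor, stood at 108 FPKM in the control and 31.4 FPKM in the NANOG/siHDAC1 library (-1.75). The clustered kallikrein proteases KLK5, KLK6 and KLK10 on chromosome 19 differed by -1.16, -1.43 and -1.11, though KLK10 was at -0.99 under TPM. TGM2, a transglutaminase, differed by -1.61 and CSTA, a cysteine protease inhibitor, by -1.10 (-0.98 under TPM). SPRR1B, an envelope precursor, was higher, from 1.12 to 3.36 FPKM (1.04), and CDSN and CNFN were within 0.1 of equal. IVL, another precursor, was lower (-0.61), and the antiproteases PI3 (0.26), CSTB (0.21) and SERPINB5 (0.20) were higher.

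Cell contacts were lower by small amounts. Tight junction genes were lower in 12 of 13 cases (median -0.31), desmosome genes in 8 of 10 (median -0.24), and hemidesmosome and laminin-332 genes in 9 of 11 (median -0.22). CLDN1, a claudin that seals the junction, was at 8.02 and 5.18 FPKM (-0.54). JUP, the plakoglobin of both adherens junctions and desmosomes, differed by -0.57. In a separate list, of epithelial regulators and surface genes, 12 of 18 were lower and 6 higher (median -0.15). Its lowest members were MUC1, an apical mucin, at -1.06 (-0.93 under TPM), and CDH1, which encodes E-cadherin. CDH1 was at 92.0 and 57.2 FPKM (-0.68). The highest member of that list was OVOL2 (0.26), and EPCAM was level at 166 and 169 FPKM (0.02). ITGA6, an integrin of hemidesmosomes, was higher, with 22.4 FPKM in the control and 41.4 FPKM in the NANOG/siHDAC1 library (0.86). The other higher members of these contact lists were DSC2 (0.20), PKP3 (0.16), LAMB3 (0.02) and MARVELD2 (0.02). Genes of the S100 calcium-binding family were lower in 10 of 11 cases (median -0.21), and those of the YAP/TAZ pathway in 15 of 20 (median -0.29). Targets of that pathway went both ways. CYR61 (-0.65), CRIM1 (-0.61) and F3 (-0.57) were lower, while CTGF (0.17), AXL (0.08) and ANKRD1 (0.07) were slightly higher.

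Extracellular genes went in both directions with large sizes. FN1, fibronectin, was at 264 FPKM in the control, 76.5 FPKM in the NANOG/siHDAC1 library and 86.9 FPKM in the NANOG/siGFP library, a difference of -1.78. PLAT, the tissue plasminogen activator, differed by -2.26 (45.9 to 8.75 FPKM), while PLAU, the urokinase type, was slightly higher (0.24). Among matrix proteases, MMP1, the interstitial collagenase, was at 0.536, 5.51 and 7.86 FPKM in the control, NANOG/siHDAC1 and NANOG/siGFP libraries, a difference of 2.08. MMP3, stromelysin, which is the next compared gene to MMP1 on chromosome 11, differed by 1.70, and the inhibitor TIMP1 by 1.04. The other 8 members of the MMP, ADAM and TIMP list were lower, so that list had a median of -0.25 but a mean of 0.22. VIM, the mesenchymal intermediate filament, was at 26.0 and 52.9 FPKM (0.9995), CDH2 was near level (-0.15), and 11 of 17 matrix and mesenchymal genes were lower (median -0.25).

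The IGF-binding proteins, which hold insulin-like growth factors in the extracellular space, split most widely. IGFBP3 was at 371 FPKM in the control, 105 FPKM with NANOG and HDAC1 siRNA and 117 FPKM in the NANOG/siGFP library. IGFBP5 was at 39.6, 144 and 165 FPKM in those libraries. Their differences were -1.81 and 1.83, with IGFBP2 (0.83), IGFBP6 (0.51) and IGFBP4 (0.41) also higher. NOG, an antagonist of BMP, was at 15.3 and 2.94 FPKM (-2.05). The BMP targets ID3 (0.93) and ID2 (0.40) were higher and ID1 (-0.29) lower. In the Notch pathway, the ligand-like DNER was at 1.59, 8.58 and 11.3 FPKM in the control, NANOG/siHDAC1 and NANOG/siGFP libraries (1.88). HES1, the best known Notch target, was higher by 0.88. EGFR was lower by -0.74 and EPGN, one of its ligands, higher by 1.09.

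**Figure D3:**
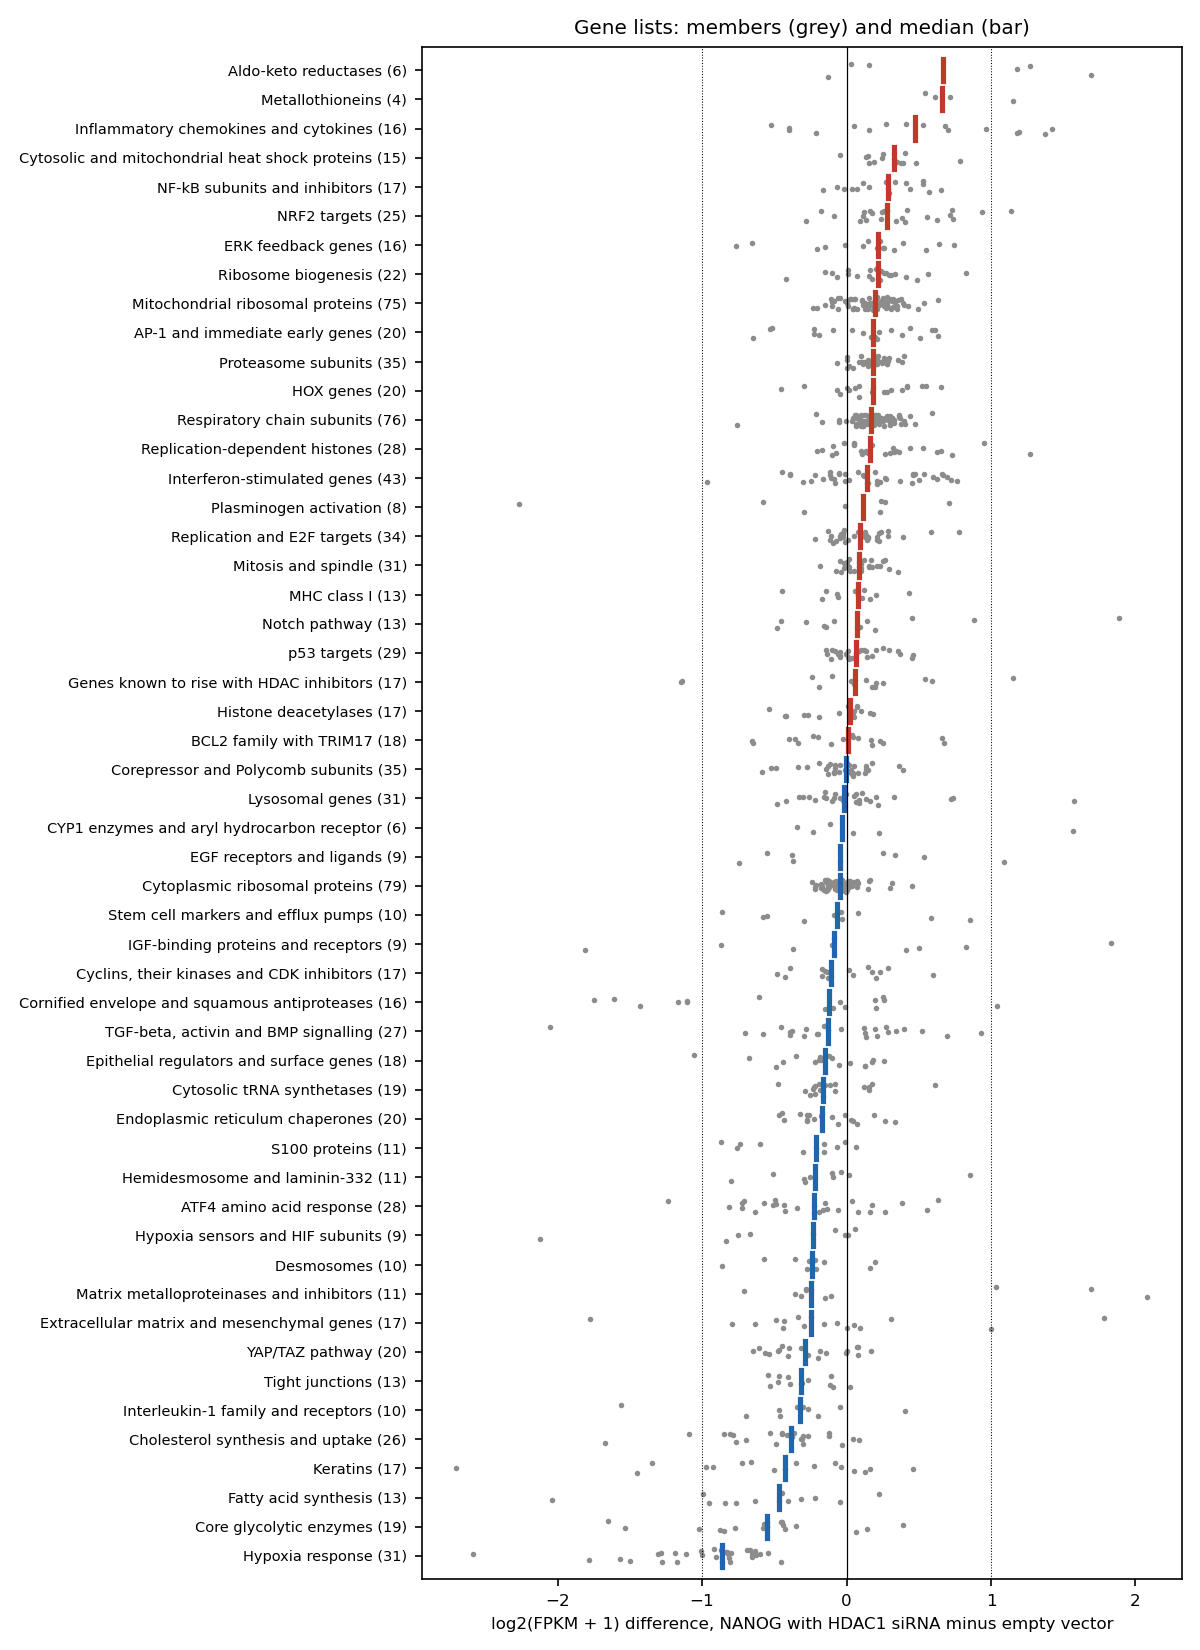
Differences in log2(FPKM + 1) of the members of each gene list (grey points, number compared in brackets) with the list's median (blue below 0, red above); dotted lines mark 2-fold. Hypoxia genes have the lowest median, -0.86, with no member above 0; the lists of aldo-keto reductases and metallothioneins have the highest, 0.67 and 0.66.

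Chemokines and cytokines were mostly higher: 12 of 16 were higher, 4 of them 2-fold, with a median of 0.47, against 49.6% and 0.334% of all genes. CXCL1, a neutrophil attractant, stood at 8.82 FPKM in the control, 24.4 FPKM in the NANOG/siHDAC1 library and 15.8 FPKM in the NANOG/siGFP library, a difference of 1.37. IL8, now named CXCL8, was at 37.2, 86.3 and 43.3 FPKM in those libraries (1.19), and CXCL2 at 7.87, 19.1 and 11.7 FPKM (1.18). For these genes the NANOG/siHDAC1 library was the highest of the 3. The promoters of CXCL1, CXCL2 and IL8 are shown because they share an exact NF-kB site, GGAATTTCC, a motif picked after the values were seen. They lie at chr4:73869143-73869442, plus strand for CXCL1, chr4:74099146-74099445, minus strand for CXCL2 and chr4:73740319-73740618, plus strand for IL8 on GRCh38.p14. Capitals mark the site on either strand.
CXCL1: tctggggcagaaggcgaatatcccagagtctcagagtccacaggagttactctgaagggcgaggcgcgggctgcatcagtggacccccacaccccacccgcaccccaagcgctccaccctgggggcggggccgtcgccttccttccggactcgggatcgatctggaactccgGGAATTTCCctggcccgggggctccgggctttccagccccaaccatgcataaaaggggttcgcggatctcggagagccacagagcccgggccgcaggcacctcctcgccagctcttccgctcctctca
CXCL2: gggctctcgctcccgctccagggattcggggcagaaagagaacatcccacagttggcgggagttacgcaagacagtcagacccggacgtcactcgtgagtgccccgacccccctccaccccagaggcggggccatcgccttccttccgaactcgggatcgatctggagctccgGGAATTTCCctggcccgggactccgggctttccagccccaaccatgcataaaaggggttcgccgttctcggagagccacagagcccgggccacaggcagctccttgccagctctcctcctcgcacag
IL8: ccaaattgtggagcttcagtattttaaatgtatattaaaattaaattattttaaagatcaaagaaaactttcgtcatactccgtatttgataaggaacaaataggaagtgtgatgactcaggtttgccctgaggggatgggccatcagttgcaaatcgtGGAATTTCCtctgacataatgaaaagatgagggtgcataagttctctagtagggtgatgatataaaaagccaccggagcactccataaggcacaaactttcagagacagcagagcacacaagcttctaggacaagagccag
The site begins 78, 77 and 91 bases before the gene start in CXCL1, CXCL2 and IL8. It occurred in 5 of 12 promoters of the list (41.7%), those of CXCL3 and ICAM1 included, and in 0.472% of all promoters. Because the motif was picked after the values were seen, these shares are a description only and not evidence of binding. The CXCL1 and CXCL2 promoters are alike around the site. CXCL1, CXCL2 and CXCL3 are alike in sequence, so reads could be split between them.

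Other cytokines were less uniform. CCL20, which attracts Th17 and immature dendritic cells, was at 1.66 FPKM in the control, 6.15 FPKM with NANOG and HDAC1 siRNA and 1.24 FPKM in the NANOG/siGFP library (1.42). CSF2 (0.70) and IL23A (0.68) were higher, IL6 was close to level at 98.7 and 110 FPKM (0.15), and IL11 was lower (-0.52). NF-kB subunits and inhibitors were higher in 14 of 17 cases with a median of 0.29. Of the subunits, RELB (0.44) and NFKB2 (0.27) were higher and RELA (-0.07) and NFKB1 (0.04) near level. Of the adaptors and inhibitors, TRAF1 (0.65), BCL3 (0.57), TNFAIP3 (0.53) and NFKBIA (0.41) were higher, and TNIP1 (-0.16) and CYLD (-0.02) were not. Genes of the interleukin-1 family and its receptors were lower in 9 of 10 cases (median -0.32). The lowest was the receptor antagonist IL1RN at 12.1 and 3.44 FPKM (-1.56). The 1 higher gene was the cytokine IL1A, at 3.19 and 4.55 FPKM (0.40). Lower members included further inhibitors, such as IL36RN (-0.70), and receptors, such as IL1R1 (-0.04). The AP-1 list held 13 of 20 higher (median 0.18), with FOSL1 at 0.63 and JUND at -0.52, and the ERK feedback list 11 of 16 higher (median 0.22), with ETV4 at 0.74 and DUSP5 at -0.65.

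Interferon-stimulated genes were mixed, with 26 of 43 higher, 17 lower and a median of 0.14. ISG15, a ubiquitin-like modifier, was at 489, 830 and 922 FPKM in the control, NANOG/siHDAC1 and NANOG/siGFP libraries (0.76). CXCL11 (0.73), OASL (0.70) and USP18 (0.67) were also higher, IFITM1 was lower (-0.97), and STAT2, part of the factor that drives the programme, differed by -0.45. The promoter of ISG15, chr1:1013247-1013546, plus strand, is shown because it holds the interferon element GAAANNGAA, in capitals, in 3 overlapping matches on either strand that begin 113, 107 and 101 bases before the gene start.
ISG15: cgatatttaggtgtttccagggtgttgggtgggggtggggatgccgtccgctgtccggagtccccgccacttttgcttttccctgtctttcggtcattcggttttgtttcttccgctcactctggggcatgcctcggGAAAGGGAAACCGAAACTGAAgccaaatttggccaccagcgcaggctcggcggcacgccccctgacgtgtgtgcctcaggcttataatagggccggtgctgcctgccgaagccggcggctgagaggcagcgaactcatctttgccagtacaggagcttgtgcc
The element occurred in 22 of 34 promoters of the list (64.7%) and in 8.29% of all promoters, and members that were lower, such as IFITM1, hold it as well. MHC class I genes were near level (8 of 13 higher, median 0.08, or -0.01 with transcript length subtracted), with HLA-B at 0.08 and B2M at 0.16.

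Oxidative stress genes under NRF2 were higher in 22 of 25 cases, 1 of them 2-fold, against 49.6% and 0.334% of all genes. Their median was 0.28. NQO1, a quinone reductase, stood at 205 FPKM in the control, 394 FPKM in the NANOG/siHDAC1 library and 639 FPKM in the NANOG/siGFP library (0.94). OSGIN1 differed by 1.14, GSR, glutathione reductase, by 0.74 and SRXN1, sulfiredoxin, by 0.73. The ferritin chains parted, FTL at 0.63 and FTH1 at -0.18. NFE2L2, which encodes NRF2 itself, was at 54.2 and 65.9 FPKM (0.28). Aldo-keto reductases include NRF2 targets: AKR1C1 (5.10 to 18.7 FPKM, 1.69), AKR1C3 (34.8 to 85.6 FPKM, 1.27) and AKR1B10 (0.602 to 2.62 FPKM, 1.18) were all more than 2-fold higher. AKR1C1 and AKR1C3 lie in 1 cluster on chromosome 10 and are near copies, so reads could be split between them. CYP1B1, an oxidase under the aryl hydrocarbon receptor, was at 3.09, 11.2 and 17.8 FPKM in the control, NANOG/siHDAC1 and NANOG/siGFP libraries (1.57), while AHR itself was level (0.05).

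Metallothioneins bind zinc and copper. Of 10 listed, 4 were expressed enough to compare, and all 4 were higher: MT1E (1.152), MT2A (0.71), MT1F (0.61) and MT1X (0.54). MT2A was among the most abundant transcripts, at 2716 FPKM in the control, 4455 FPKM in the NANOG/siHDAC1 library and 4450 FPKM in the NANOG/siGFP library. These genes are near copies of one another. The promoter of MT2A, chr16:56608334-56608633, plus strand, is shown for its run of metal response cores, TGCACNC or TGCGCNC on either strand, in capitals. This motif was also picked after the values were seen.
MT2A: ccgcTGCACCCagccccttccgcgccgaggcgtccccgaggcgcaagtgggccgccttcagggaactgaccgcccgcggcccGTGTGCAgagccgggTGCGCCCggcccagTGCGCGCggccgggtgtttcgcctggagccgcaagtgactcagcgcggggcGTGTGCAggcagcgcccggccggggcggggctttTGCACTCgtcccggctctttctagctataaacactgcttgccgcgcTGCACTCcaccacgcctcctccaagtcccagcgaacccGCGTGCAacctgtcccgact
The MT2A promoter held 8 matches, which describe the sequence and are not evidence of binding. At least 1 match occurred in both of the 2 metallothionein promoters found in the RefSeq table, MT1X and MT2A, and in 29.3% of all promoters.

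**Figure D4:**
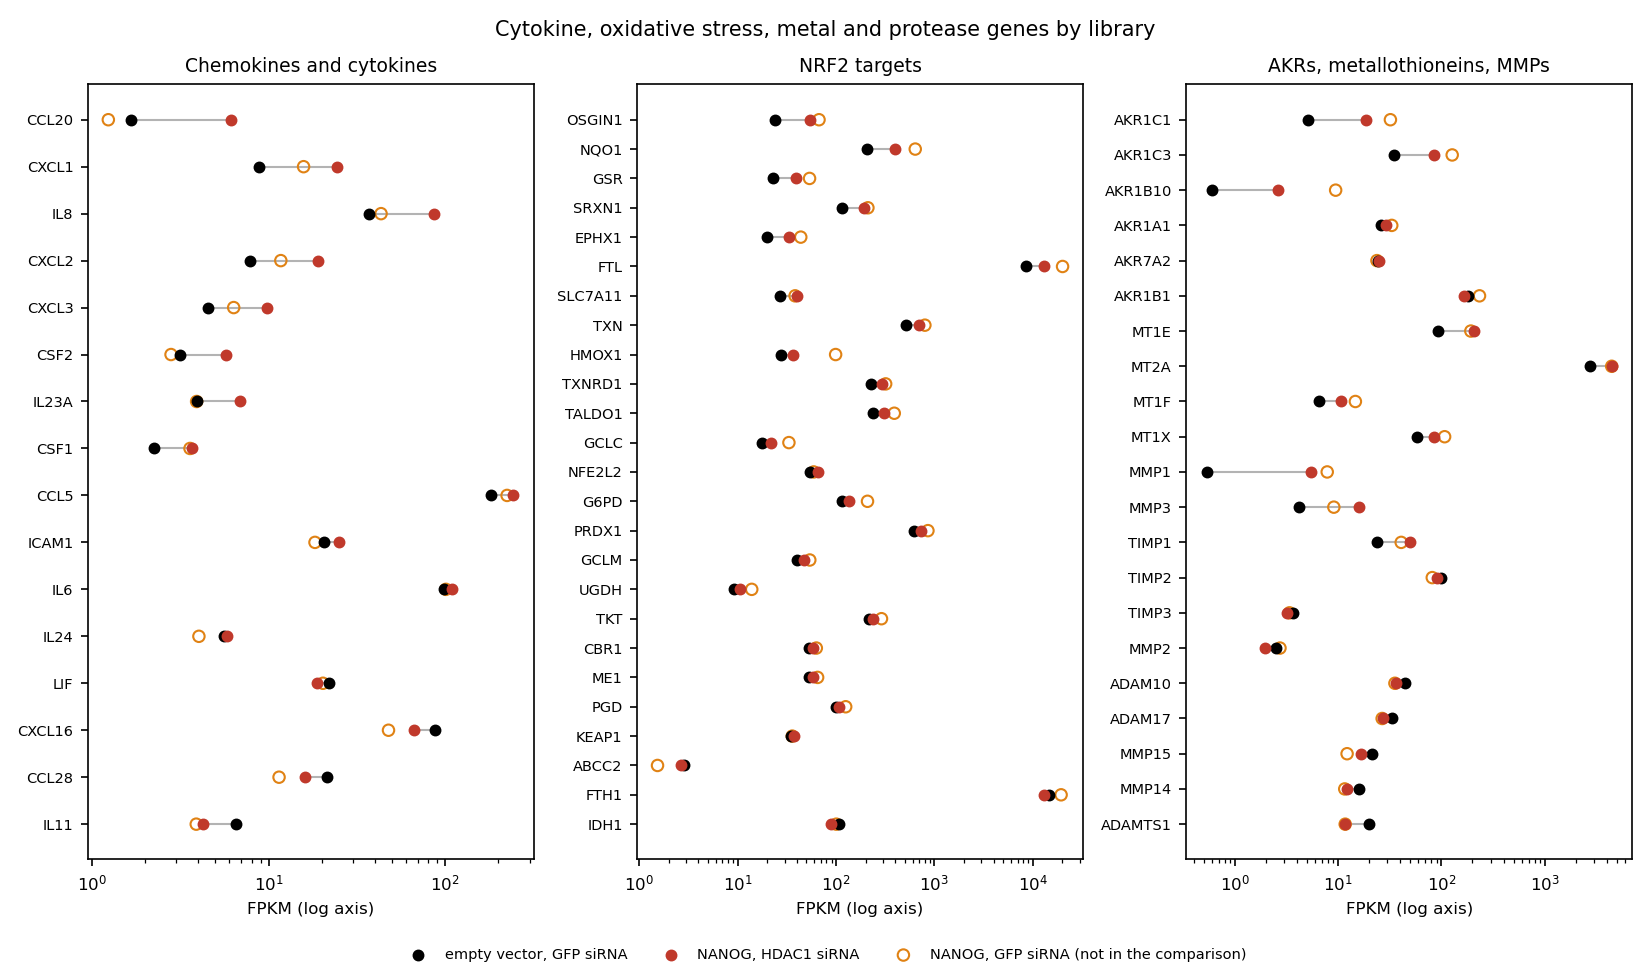
FPKM (log axis) of cytokine, NRF2, aldo-keto reductase (AKR), metallothionein and matrix protease (MMP, ADAM, TIMP) genes, 1 gene a row: black, control; red, NANOG with HDAC1 siRNA; open orange, NANOG with GFP siRNA. CXCL1, CXCL2, IL8 and CCL20 are highest in the red library, whereas NQO1, AKR1C1 and AKR1C3 are highest in the open orange one.

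Several large families differed by little but with most members on one side. Respiratory chain subunits were higher in 70 of 76 cases (median 0.17), mitochondrial ribosomal proteins in 64 of 75 (median 0.20) and proteasome subunits in 34 of 35 (median 0.18). ATP5G1, a subunit of ATP synthase, was at 147 and 221 FPKM (0.59), MRPL12 at 77.4 and 113 FPKM (0.54), and PSMB6, a catalytic proteasome subunit, at 189 and 250 FPKM (0.40). NDUFA4L2, the respiratory list's lowest gene at -0.76, is also a hypoxia-induced gene. Transcript length moved with the difference: of 4 equal classes by length, the shortest genes had a median of 0.07 and the longest -0.07. Its part in these differences was not tested. After the median of genes of like length was subtracted, the medians were 0.11, 0.13 and 0.13 for the respiratory, mitoribosomal and proteasome lists, the first over the 62 of 76 subunits with a known length. Cytoplasmic ribosomal proteins, also short, were lower in 59 of 79 cases with a median of -0.05, which TPM scaling turned to 0.09. Ribosome biogenesis factors were higher in 18 of 22 cases (median 0.22), with the rRNA-processing factor RRP9 at 0.83.

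**Figure D5:**
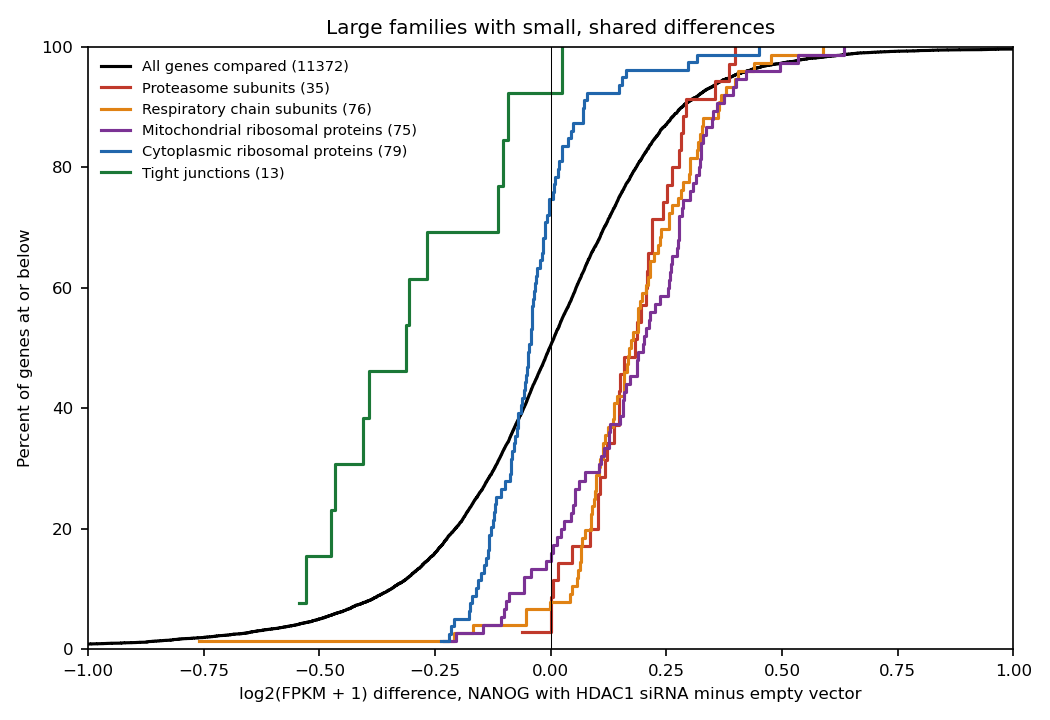
Cumulative percent of genes (y axis) at or below each log2(FPKM + 1) difference (x axis) for all genes compared and for 5 families, with the number compared in brackets. Curves of the respiratory, mitoribosomal and proteasome lists lie to the right of all genes, with medians of 0.17, 0.20 and 0.18, and that of tight junctions to the left, with a median of -0.31.

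Cell cycle genes were nearly level. Mitosis genes were higher in 25 of 31 cases, but with a median of 0.09, and replication genes in 20 of 34 (median 0.09). RRM2, a ribonucleotide reductase subunit, was higher by 0.58 and CCNE1, cyclin E, by 0.60. Of 29 p53 targets 19 were higher (median 0.06), led by GADD45A (0.46) and BTG2 (0.46), with the CDK inhibitor CDKN1A at 94.4 and 109 FPKM (0.21). Of 17 genes known to respond upward to HDAC inhibitor drugs, 12 were higher (median 0.06), 2 of them metallothioneins, and TNFSF9 and CRIP2 were lower, both by -1.14. The BCL2 family had 9 of 18 higher and 9 lower (median 0.01, mean -0.03): the death effector BAK1 differed by 0.66, and BIK and BOK both by -0.65. HOX genes were higher in 16 of 20 cases (median 0.18), HOXA11 the most (0.65), and replication-dependent histone genes in 22 of 28 (median 0.16). Histone genes are near copies of one another. CD24, a surface marker used to sort carcinoma cells, was at 300 and 165 FPKM (-0.86), and CD44 was near level (0.08).

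Among single genes with large differences, SPP1, osteopontin, was higher at 1.60 and 7.94 FPKM (1.78). GPNMB, a lysosomal glycoprotein, was at 4.003 and 13.9 FPKM (1.58), and HMGA2, a chromatin protein of embryonic cells, at 4.01, 11.3 and 4.63 FPKM in the control, NANOG/siHDAC1 and NANOG/siGFP libraries (1.29). On the lower side were FGFBP1, a carrier of fibroblast growth factors (-1.99), NMB, neuromedin B (-1.74), and C12orf36 (-2.12). RPL21P28, at 18.8 and 84.4 FPKM (2.11), is a pseudogene of RPL21, and both were listed at 0 in the NANOG/siGFP library. Reads could be split between them, and the part of this in the value was not tested. SYS1-DBNDD2 (1.89) is a readthrough symbol that shares exons with other genes. Of the 2-fold genes, 19 lay beside another 2-fold gene of the same direction among the compared genes placed in the annotation, in 9 runs. Genes not compared can lie between them. Beyond those named, the runs were SCD with LINC00263, where reads could be shared, SAA2 with SAA1, C3orf58 with PLOD2, and CLIC5 with GPR110, all lower, and IL8 with CXCL1, higher. The comparison left out 4 symbols that were listed at exactly 0 in one library and at 5 FPKM or more in the other. Of these, SMARCA4, a chromatin-remodelling ATPase, was listed at 0 in the control, 21.0 FPKM in the NANOG/siHDAC1 library and 19.7 FPKM in the NANOG/siGFP library. P2RX6P was listed at 0, 5.74 and 0 FPKM in that order, and SNAR-E at 7.45, 0 and 0 FPKM.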

How the data were processed

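Libraries were stranded total RNA, per the labels' protocols. The authors deposited 1 FPKM value per gene symbol and library. TopHat2 and Cufflinks, on hg19, are named per the submitters' processing notes; the sources used here do not give versions, annotation or strand settings. The deposited FPKM tables hold no counts, so depth and counting error are unknown.

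Values were processed in Python 3.11.15 with pandas 2.3.3 and numpy 2.4.6, and plotted with matplotlib 3.10.9; scipy was at 1.17.1. The difference is log2(FPKM + 1), NANOG with HDAC1 siRNA minus empty vector with GFP siRNA, for genes whose mean over both was 1 FPKM or more. Small RNA symbols (snoRNA, scaRNA, miRNA, RNU, RNY, RN7) and symbols at 0 in one library and at least 5 FPKM in the other were left out. With 1 library per group there was no test; the arithmetic was tested on simulated data. Genes named are NANOG and the HDAC genes, the 15 largest differences each way where the higher value was 5 FPKM or more (no LOC symbols), the 8 largest each way where the mean was 100 FPKM or more, up to 6 members per list with others needed for a role, neighbouring 2-fold genes, and genes listed at 0. Some of these are not reported here. The comparison and the 54 lists were chosen with earlier results of these data known. Transcript lengths came from GENCODE 29 by symbol, and gene order and promoters from RefSeq. Alternatives were TPM scaling, equal sums without small RNAs, other pseudocounts (0.1 and 0.5), a filter of 5 FPKM, other fold thresholds (1.5 and 3), means for medians, and 20 bins of transcript length.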

Additional observations from a re-analysis of the deposited data

Results flagged for a closer look

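Small RNA symbols, which were left out of the comparison, held 2 values present in the NANOG/siHDAC1 library alone. SNORD5 was listed at 66160 FPKM there and SNORD76 at 28269 FPKM, and both were listed at 0 in the control and NANOG/siGFP libraries. Very large single values were not particular to this library. The highest small RNA symbol was MIR4461 in the control, at 128880 FPKM, and SNORD55 in the NANOG/siGFP library, at 65956 FPKM.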

How the results depend on the processing

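With 1 library per group no replicate could be left out, and no paired analysis was possible because each group has 1 library. Of 61 named 2-fold genes, 56 stayed past 2-fold under each scaling, filter and pseudocount that kept them, and none changed sign there. Low genes such as MMP1 and CCL20 drop out at a filter of 5 FPKM, and length bins were run on counts and lists, not on single genes. The others fell short under TPM: PGK1 (-0.88, and -0.97 with equal sums without small RNAs), INSIG1 (-0.96), KLK10 (-0.99), CSTA (-0.98) and MUC1 (-0.93). The count of higher genes was 68 with a pseudocount of 0.1, 23 with a filter of 5 FPKM, 194 at 1.5-fold and 11 at 3-fold. The count of lower genes was 145 with a pseudocount of 0.1, 402 at 1.5-fold and 24 at 3-fold. Lower thresholds admit more genes by construction. Other lists that TPM turned had main medians within 0.1 of 0. Under TPM the all-gene median was 0.12, and 3 list medians turned above 0. They were cyclins at 0.0897, TGF-beta and BMP signalling at 0.0033, and cornified envelope genes with kallikreins and squamous antiproteases at 0.00853. Among lists with a main median of 0.1 or more in size, means in place of medians turned 2. These were matrix metalloproteinases (0.22) and plasminogen activation (-0.21). Further lists that means turned, the histone deacetylases among them, had main medians within 0.1 of 0. Depth is unknown, and no value above has a replicate.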

Other observations

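Some acute-phase, complement and mucosal defence genes were lower in the NANOG/siHDAC1 library. They were picked after their values were seen, with no count over such genes. C3, the central complement component, was at 8.28 FPKM in the control, 1.21 FPKM with NANOG and HDAC1 siRNA and 2.22 FPKM in the NANOG/siGFP library (-2.07). C4BPB, part of a complement inhibitor, differed by -1.87. SAA1 and SAA2, serum amyloid genes that are near copies, differed by -1.47 and -1.16. LCN2, an iron-siderophore carrier of mucosal defence, was at 419, 213 and 196 FPKM in the control, NANOG/siHDAC1 and NANOG/siGFP libraries (-0.97).

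Type III interferon genes, also picked after their values were seen apart from IL29, were higher. IL29 (now IFNL1) was at 15.3 FPKM in the control, 41.8 FPKM in the NANOG/siHDAC1 library and 36.9 FPKM in the NANOG/siGFP library (1.39). IL28B differed by 0.95 and IL28A by 0.83, and these 2 are near copies of each other. Also picked after their values were seen, and with no tally of such genes, 3 further genes that hypoxia is known to induce were lower: MB, myoglobin (4.09 to 0.147 FPKM, -2.15), SPAG4 (-1.25) and HILPDA, a lipid droplet protein (-1.04).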
